A study of Mus musculus with 23 samples.

Results

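The 10 genes described here are mouse counterparts of genes at human risk loci for Alzheimer disease and were followed in mouse microglia: Bin1, Picalm, Sorl1, Abi3, Abca7, Ptk2b, Cd2ap, Rin3, Atp8b4 and Cass4. They were chosen by name, and all 10 were found among the 53090 genes of each library and passed the filter on low counts, which left 18720 genes. Messenger RNA was measured in microglia of female C57BL/6 mice in 23 libraries. The labels name 4 groups, read here as young (Y, n = 7), young with repopulated microglia (Y-re, n = 3), old (O, n = 5) and old with repopulated microglia (O-re, n = 8). For depletion, PLX5622, an inhibitor of the receptor CSF1R on which microglia depend, was mixed into chow at 1200 ppm, and control mice were fed the chow without it. The ages of the mice, how long they were treated and how long the microglia had to return were not stated in the labels. Magnetic CD11b selection with culture and flow cytometric sorting both appear in the protocols, and RNA extraction is described for sorted cells. Nothing in the labels says how many animals stand behind a library, so p-values measure the spread between libraries.

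Most of these genes act where the plasma membrane, endosomes and the actin cytoskeleton meet. Bin1 bends membranes, Picalm is an adaptor that brings clathrin to forming vesicles, Cd2ap is a scaffold between endocytosis and actin, Rin3 activates the early endosome GTPase Rab5, and Sorl1 is a sorting receptor that returns cargo from endosomes. Abca7 is an ABC transporter that moves lipids, and Atp8b4 belongs to the P4-ATPases, most of which flip phospholipids across membranes. Abi3 is an adaptor of the WAVE complex, which starts branched actin, Ptk2b (also called Pyk2) is a relative of focal adhesion kinase, and Cass4 is a scaffold of the Cas family. Microglia rely on these processes to survey tissue and to take up debris.

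Total counts ranged from 43.66 M to 58.19 M per library. The libraries fall by their title numbers into 1 to 11 (3 young, 2 old, 5 old repopulated) and 12 to 24 (4 young, 3 young repopulated, 3 old, 3 old repopulated), and what the numbers record is not stated. Young replicate 3 stood apart with 16399 genes counted, where the other 22 libraries had 17620 to 22208. Without it, the same numbers of the 10 genes passed the test in all 6 comparisons. The summed level of 8 microglia markers was 21230 to 25650 CPM (counts per M, scaled by TMM) in young and 19690 to 22980 in young repopulated libraries, but 8755 to 22310 in old and 7813 to 25930 in old repopulated ones. The 6 monocyte markers summed to 15.6 to 232.5 CPM in young, 75.4 to 259.4 in young repopulated, 120.8 to 2127 in old and 87.5 to 2820 in old repopulated libraries. The young sum of 232.5 CPM was that of replicate 3, and the next highest young sum was 32.1 CPM. The drug target Csf1r averaged 6909 CPM ± 385 (SD, n = 7) in young, 6158 ± 559 (n = 3) in young repopulated, 4532 ± 1233 (n = 5) in old and 4270 ± 1629 (n = 8) in old repopulated libraries. In bulk libraries, fewer cells of a type and less RNA per cell cannot be told apart.

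Per transcript length (TPM, transcripts per M, as deposited), the levels in young microglia spanned a wide range. By median TPM the order was Picalm (800.0), Bin1 (495.0), Abi3 (216.3), Ptk2b (88.7), Cd2ap (49.3), Sorl1 (25.4), Rin3 (22.97), Abca7 (19.5), Cass4 (9.5) and Atp8b4 (0.32). Neighbours whose young libraries overlapped were Sorl1 (17.1 to 28.4 TPM), Rin3 (19.7 to 27.5 TPM) and Abca7 (12.9 to 22.7 TPM), and Abca7 and Cass4 (8.27 to 18.6 TPM) overlapped as well. Picalm lay at the 99.0th percentile of the tested genes. Atp8b4 lay at the 20.4th, with only 25 to 112 counts in a young library, which goes against describing it as expressed in young microglia. It reached 3.17 to 6.26 TPM in young repopulated, 1.25 to 24.5 in old and 2.07 to 23.7 in old repopulated libraries.

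**Figure D1:**
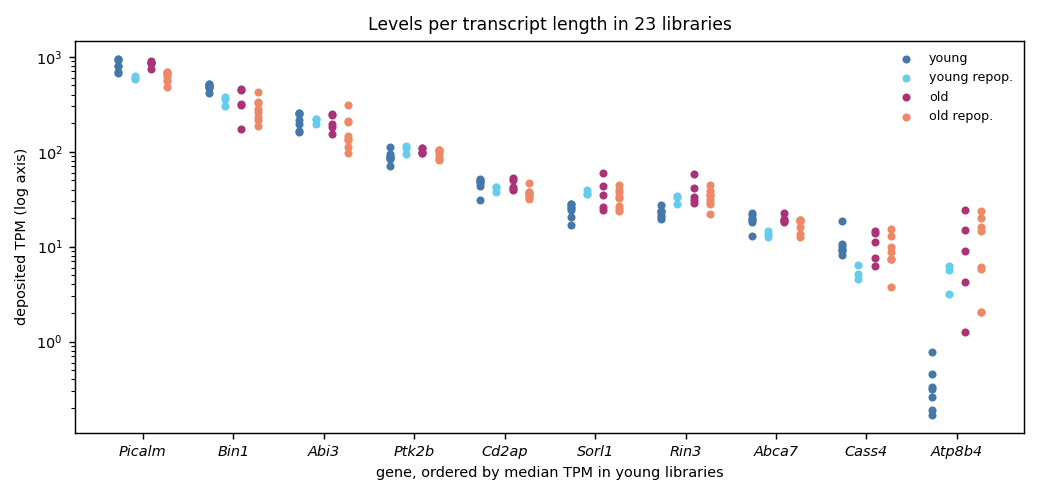
Deposited TPM (log axis) of the 10 genes in each of 23 libraries, coloured by group and ordered by the median of the young libraries. Atp8b4 runs from 0.17 TPM in a young library to 24.5 TPM in an old one, and Picalm lies above 480 TPM in every library.

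The bases before the start site are shown for 3 genes that changed in the tests below, to set a gene that was nearly silent in young microglia beside genes that were not. Windows of 7 of the 10 genes were read from RefSeq (GRCm38.p6), with 2 start sites each for Rin3 and Sorl1. Bin1 was left out beforehand. The windows are Atp8b4 at chr2:126491574-126491803 (minus strand, inside the annotated gene and before an internal start), the first of Rin3 at chr12:102282824-102283047 (plus strand) and Picalm at chr7:90129963-90130212 (plus strand). Letters run 5′ to 3′ and stop where an annotated exon begins. Capitals mark matches, on either strand, to the ETS core AGGAAGT, the AP-1 site TGANTCA or the GC box GGGCGG.
Atp8b4: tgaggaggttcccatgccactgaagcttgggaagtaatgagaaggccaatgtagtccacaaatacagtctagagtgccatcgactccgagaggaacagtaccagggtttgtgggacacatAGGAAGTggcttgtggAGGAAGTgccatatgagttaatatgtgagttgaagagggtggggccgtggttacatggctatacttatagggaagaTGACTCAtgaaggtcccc
Rin3: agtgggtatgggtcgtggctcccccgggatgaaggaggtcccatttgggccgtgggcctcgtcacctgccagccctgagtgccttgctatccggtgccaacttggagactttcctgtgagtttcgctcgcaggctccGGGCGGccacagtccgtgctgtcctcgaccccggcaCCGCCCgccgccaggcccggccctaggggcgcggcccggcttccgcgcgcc
Picalm: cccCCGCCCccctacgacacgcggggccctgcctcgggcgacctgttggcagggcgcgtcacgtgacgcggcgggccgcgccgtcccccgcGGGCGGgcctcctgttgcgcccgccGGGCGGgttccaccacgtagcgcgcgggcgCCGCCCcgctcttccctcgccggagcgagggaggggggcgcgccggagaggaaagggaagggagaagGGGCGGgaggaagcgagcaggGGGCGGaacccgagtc

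Over the full 250 bases, the Atp8b4 window held 2 ETS cores, 1 AP-1 site and no GC box, with 3 CpG dinucleotides and 48.0% G + C. The first Rin3 window held 2 GC boxes and 23 CpG at 71.2% G + C, and the second, at chr12:102283391-102283640, held 1 GC box and 12 CpG at 62.0% G + C. The Picalm window held 6 GC boxes and 39 CpG at 79.2% G + C. The Cd2ap window held none of these motifs, with 31 CpG at 76.4% G + C. It is not printed because nearly all of it lies in the annotated transcript. Among 32851 windows of the same length, 7.69% held an ETS core, 6.75% an AP-1 site and 32.7% a GC box, and the medians were 6 CpG and 52.4% G + C. The letters TATAAA, found in 12.4% of windows, were in none of these 5. A match describes letters only and is not evidence of binding.

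The study's title asks what renewal of microglia does in old mice, and the groups allow 6 comparisons, all tested with edgeR's quasi-likelihood test and adjusted over 18720 genes (called at an adjusted p under 0.05). The comparisons share groups, so their values are given side by side and not as support for each other. In old against young microglia, 2 of the 10 genes rose (Atp8b4, Rin3) and 0 fell, against 2.83% of all genes called (2.6% higher, 0.235% lower). In young repopulated against young microglia, 1 of 10 rose (Atp8b4) and 0 fell, against 1.34% of all genes (0.828% higher, 0.513% lower). In old repopulated against young microglia, 2 rose (Atp8b4, Rin3) and 3 fell (Bin1, Picalm, Cd2ap), against 15.2% of all genes (9.29% higher, 5.92% lower). In old repopulated against old microglia, the comparison of renewal in old mice, edgeR called 0 of the 10, against 0.278% of all genes (0.0641% higher, 0.214% lower). There 2 had an unadjusted p under 0.05, against 10.4% of all genes, and DESeq2 (1.66% of all genes) and voom with quality weights (2.21%) also called 0 of the 10. Between old and young repopulated microglia edgeR called 0 of 10 (0.0% of all genes), with 2 at an unadjusted p under 0.05 (11.7% of all genes), 0 by DESeq2 (0.433% of all genes) and 3 by voom (17.04%). The interaction, the difference that repopulation made in old mice minus the difference it made in young ones, gave 0 of 10 (0.0% of all genes), with 4 at an unadjusted p under 0.05 (8.24% of all genes) and 1 by each of DESeq2 (0.235% of all genes) and voom (0.807%).

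The counts over all genes that give these shares rested on single libraries. In old against young 530 genes were called, 100 without old replicate 3 and 941 without old replicate 1. Old repopulated against old gave 52, with 5 when old replicate 4 was left out and 185 without old repopulated replicate 1. Young repopulated against young gave 251, with 33 without young repopulated replicate 1 and 407 without old repopulated replicate 1. Old repopulated against young gave 2847, with 1955 without old repopulated replicate 6 and 4772 without old repopulated replicate 1. These are the lowest and highest counts when 1 library is left out, and in the other 2 comparisons the count was 0 or 1.

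The median log2 fold change of the 10 genes was -0.01 in old against young (all genes -0.01), -0.08 in young repopulated against young (all genes -0.04) and -0.15 in old repopulated against young (all genes -0.02). In old repopulated against old it was -0.14 (all genes 0.00). Between old and young repopulated microglia it was -0.06 (all genes 0.05), and for the interaction -0.09 (all genes 0.03).

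**Figure D2:**
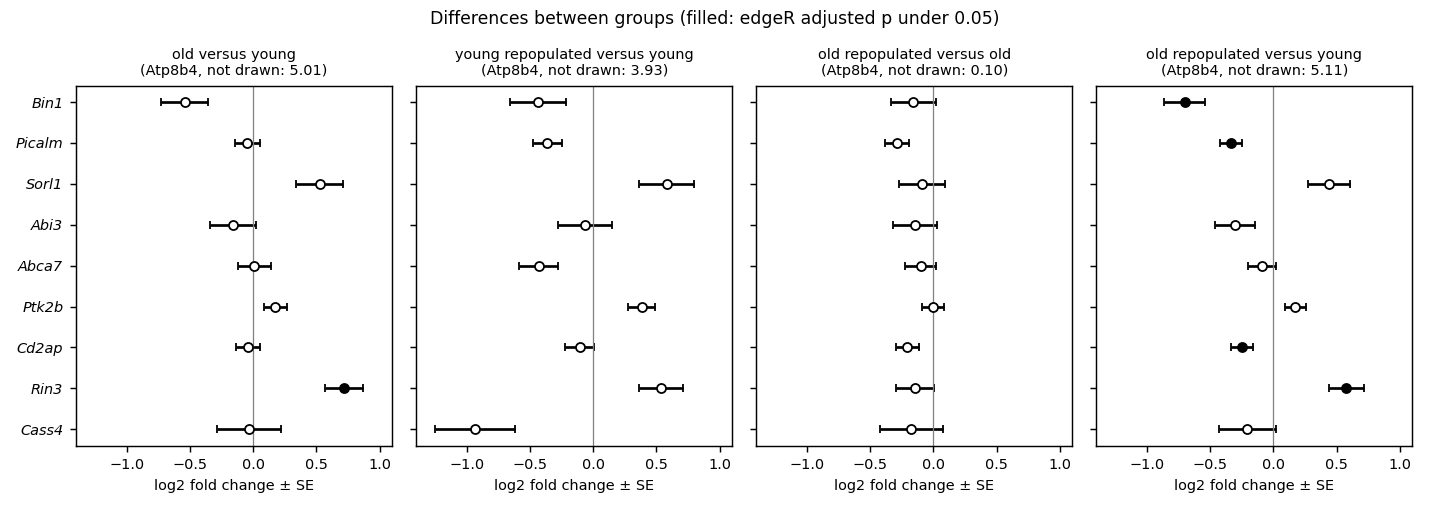
Log2 fold change with its standard error (edgeR, 23 libraries) for 9 genes in 4 comparisons; filled points passed an adjusted p of 0.05, and the value of Atp8b4, off the scale, is in each heading. Rin3 lies right of 0 in the 3 comparisons with young microglia, Bin1 and Picalm left of 0, and no point is filled for old repopulated against old.

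The lipid flippase relative Atp8b4 (ENSMUSG00000060131.11, chr2:126320973-126500674, minus strand) had the largest difference of the 10. Its level was 0.55, 0.936 and 2.53 CPM (lowest, median, highest) in the 7 young libraries. In the 3 young repopulated libraries it was 20.6, 18.4 and 10.1 CPM, in the 5 old ones 3.77, 29.6, 79.5, 12.6 and 47.6 CPM, and in the 8 old repopulated ones 4.94, 33.95 and 75.5 CPM (lowest, median, highest). Every library of the other 3 groups lay above every young library, and within the old groups the highest and lowest differed widely. The log2 fold change was 5.01 ± 0.71 (SE) in old against young (adjusted p = 0.00237), 3.93 ± 0.73 in young repopulated against young (adjusted p = 0.00990) and 5.11 ± 0.69 in old repopulated against young (adjusted p = 0.000118), which are 32.3, 15.2 and 34.6-fold. Old repopulated and old libraries overlapped throughout, with a difference of 0.10 ± 0.61 (adjusted p = 0.988). The 2 repopulated groups differed by 1.18 ± 0.78, old over young (adjusted p = 0.531), and by 2.00 within library numbers 12 to 24 (adjusted p = 0.00778). The interaction was -3.83 ± 0.94 (adjusted p = 0.336). It passed with DESeq2 (-3.83, adjusted p = 0.0491) and within library numbers 12 to 24 (-3.77, adjusted p = 0.0138), and missed the threshold with voom (-3.56, adjusted p = 0.159).

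Among the old libraries, those with the most and the least Atp8b4 also differed in markers of several other myeloid cells, but not of neutrophils. In the old library with the most Atp8b4 (replicate 3, 79.5 CPM), monocyte markers summed to 2127 CPM, dendritic cell markers to 139.9 and microglia markers to 8755, each the extreme of the old group. Markers of border-associated macrophages were also highest there, at 902.2 CPM. In the old library with the least (replicate 1, 3.77 CPM), the monocyte, dendritic cell and microglia sums were 120.8, 12.03 and 22310 CPM, and the border-associated macrophage sum was 188.2 CPM. The 8 neutrophil markers summed to 148.8 CPM in old replicate 3, 153.8 in replicate 1 and 209.7 in replicate 4, where Atp8b4 was 12.6 CPM. In young and young repopulated libraries they summed to 10.3 to 82.1 and 64.7 to 150.0 CPM. In old and old repopulated ones they reached 82.5 to 209.7 and 66.8 to 298.6 CPM. Over the groups, the 8 border-associated macrophage markers summed to 58.7 to 228.7 CPM in young, 299.3 to 416.9 in young repopulated, 188.2 to 902.2 in old and 73.2 to 1261 in old repopulated libraries. The 6 dendritic cell markers summed to 5.11 to 11.5, 14.6 to 31.2, 12.03 to 139.9 and 9.27 to 91.5 CPM in the same order. Both sums were higher in every young repopulated than in every young library, as Atp8b4 was. The monocyte sum was at least 75.4 CPM in young repopulated libraries. In young ones it was at most 32.1 CPM, except in replicate 3 (232.5 CPM). Old repopulated replicate 2 had a border-associated macrophage sum of 815.8 CPM with Atp8b4 at 18.1 CPM. Replicates 6 and 8 of that group had 1261 and 1211 CPM with Atp8b4 at 71.0 and 75.5 CPM. The part of other cells in the difference was not tested. In the libraries numbered 12 to 24 the log2 fold change was 5.77 in old against young (adjusted p = 0.000109), 4.29 in young repopulated against young (adjusted p = 0.000832) and 6.28 in old repopulated against young (adjusted p = 2.44e-05). In those numbered 1 to 11 it was 3.61 and 3.84 for the old and old repopulated groups (adjusted p = 1.0 and 0.324), in fits that called 1 and 2 genes of all tested. Without young repopulated replicate 1 the young repopulated difference was 3.73 with an adjusted p of 0.0531.

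**Figure D3:**
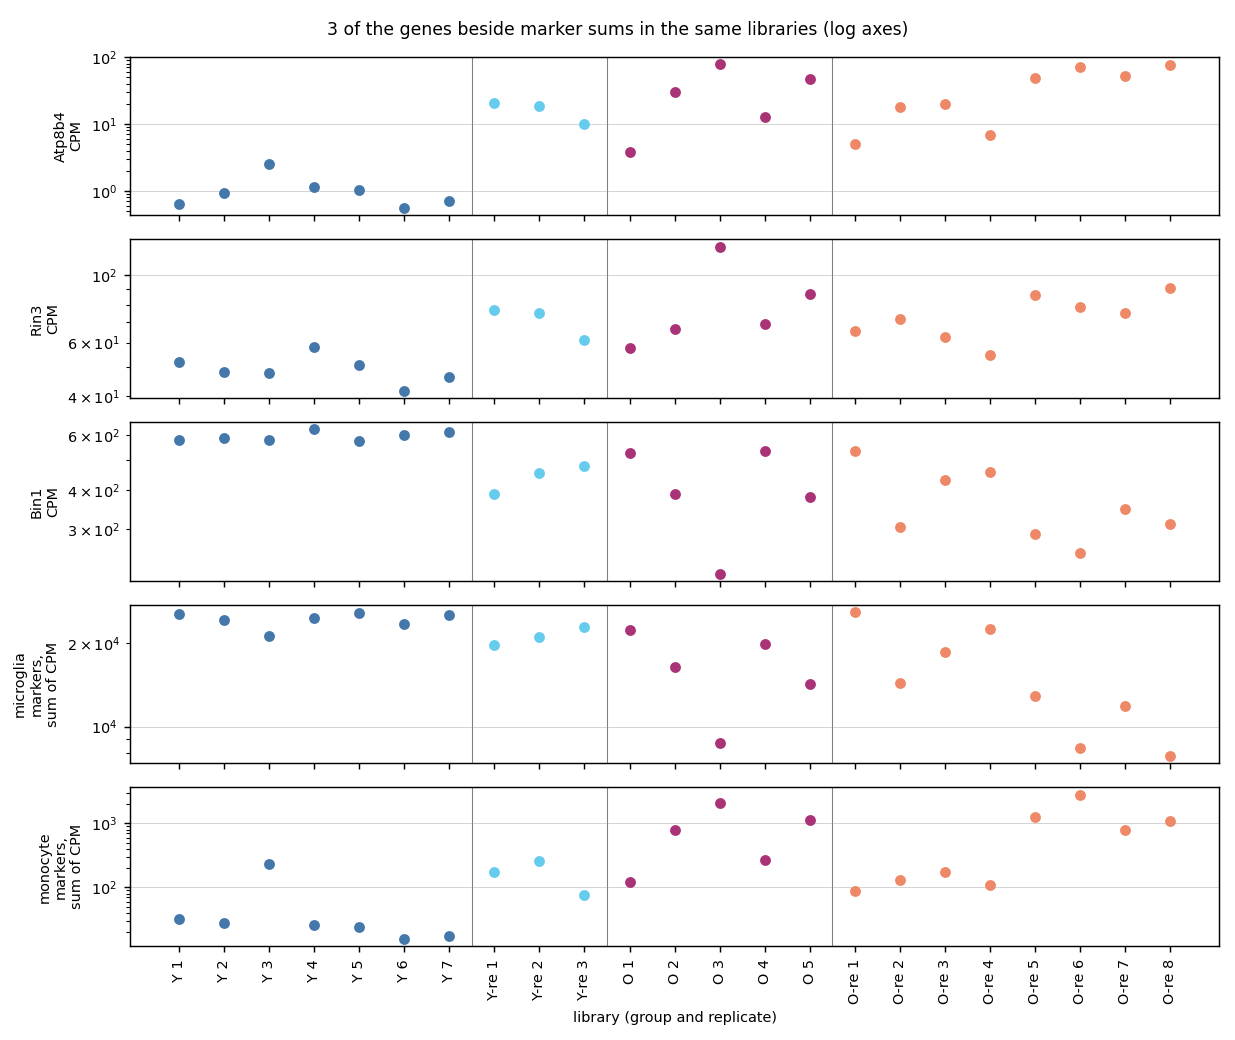
Levels of Atp8b4, Rin3 and Bin1 and summed levels of the microglia and monocyte marker lists (CPM, log axes) in each of 23 libraries, by group and replicate. In old replicate 3 and old repopulated replicates 6 and 8, Atp8b4 is above 70 CPM while the microglia sum is 8755 CPM or less; in old repopulated replicate 1 Atp8b4 is 4.94 CPM and the microglia sum 25930 CPM.

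The Rab5 exchange factor Rin3 (ENSMUSG00000044456.16, chr12:102283048-102390855, plus strand), whose protein is known to bind Bin1, also rose. It was at 41.6, 47.9 and 58.0 CPM (lowest, median, highest) in young libraries and at 76.8, 75.1 and 61.3 CPM in the young repopulated ones. The old libraries had 57.7, 66.8, 124.6, 68.9 and 86.5 CPM, and the old repopulated ones 54.6, 73.7 and 90.8 CPM (lowest, median, highest). Of the old libraries 4 of 5, and of the old repopulated ones 7 of 8, exceeded the highest young library. The log2 fold change was 0.72 ± 0.15 in old against young (1.65-fold, adjusted p = 0.0111) and 0.58 ± 0.14 in old repopulated against young (1.49-fold, adjusted p = 0.00706). All 3 young repopulated libraries were above the young range, but the difference of 0.53 ± 0.18 missed the threshold (adjusted p = 0.133). It passed with only the groups compared (0.54, adjusted p = 0.00789), with voom (0.49, adjusted p = 0.0113) and without old replicate 3 (0.53, adjusted p = 0.0494), and missed it within library numbers 12 to 24 (0.56, adjusted p = 0.0581). Without old replicate 3, which had the highest Rin3 of its group, old against young fell to 0.51 (adjusted p = 0.0656). That library also had the highest monocyte and dendritic cell sums of its group, and the part of other cells was not tested. In library numbers 12 to 24 the 2 called differences were 0.93 and 0.74 (adjusted p = 0.00344 and 0.00415), and in 1 to 11 they were 0.34 and 0.48 (adjusted p = 1.0 and 0.367).

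Bin1, the membrane-bending protein, was almost constant in young microglia and lower in the other groups. Its young libraries had 576, 591 and 628 CPM (lowest, median, highest), a coefficient of variation of 3.39%. The young repopulated libraries had 390, 455 and 481 CPM, the old ones 528, 390, 217, 534 and 380 CPM, and the old repopulated ones 251, 331 and 535 CPM (lowest, median, highest). No library of these 3 groups reached the young range, and the coefficient of variation was 31.8% in old and 26.7% in old repopulated libraries. Bin1 fell by 0.70 ± 0.16 on the log2 scale in old repopulated against young (adjusted p = 0.00656). The other differences did not pass, at -0.54 ± 0.19 in old against young (adjusted p = 0.133) and -0.43 ± 0.22 in young repopulated against young (adjusted p = 0.362). Voom with quality weights did call both, at -0.57 (adjusted p = 0.00640) and -0.44 (adjusted p = 0.0266), and the latter passed with only the groups compared (-0.42, adjusted p = 0.00637). Bin1 and the microglia sum went together in part. Old replicate 3 had the lowest of the old group in both (217 and 8755 CPM). Old repopulated replicate 1 had the highest of its group in both (535 and 25930 CPM). In the latter library the microglia sum exceeded every young one (at most 25650 CPM), while Bin1 lay below the young range. Among old repopulated libraries, the lowest Bin1 (251 CPM) was in replicate 6 and the lowest microglia sum (7813 CPM) in replicate 8. Among old ones, the highest Bin1 (534 CPM) was in replicate 4 and the highest microglia sum (22310 CPM) in replicate 1. The part of cell makeup was not tested. Within library numbers 12 to 24 the old repopulated difference was -0.98 (adjusted p = 0.00482), and within 1 to 11 it was -0.52 (adjusted p = 0.414).

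The clathrin adaptor Picalm (ENSMUSG00000039361.11, chr7:90130213-90213465, plus strand) had its lowest averages in the 2 repopulated groups. Young libraries had 1072, 1338 and 1491 CPM (lowest, median, highest) and old ones 1230, 1129, 1485, 1305 and 1304 CPM. The young repopulated libraries had 949, 1071 and 1089 CPM, and the old repopulated ones 925, 1051 and 1265 CPM (lowest, median, highest). Old and young overlapped throughout, at -0.05 ± 0.10 (adjusted p = 0.888). Picalm fell by 0.33 ± 0.09 on the log2 scale in old repopulated against young (1.26-fold lower, adjusted p = 0.0125), where 5 of 8 libraries lay below the young range. Against old, 7 of 8 old repopulated libraries lay below the old range, with a difference of -0.29 ± 0.09 (adjusted p = 0.213). Old libraries averaged 1179 CPM in library numbers 1 to 11 and 1364 CPM in 12 to 24, and old repopulated ones 1006 and 1145 CPM. The difference from old was -0.24 with a term for library number (adjusted p = 0.137). It was -0.25 within 12 to 24 (adjusted p = 0.102) and -0.22 within 1 to 11. Young repopulated against young gave -0.36 ± 0.12 and was not called by edgeR (adjusted p = 0.129). All 3 young repopulated libraries are numbered 12 to 24, where the young libraries averaged 1425 CPM, against 1209 CPM for those numbered 1 to 11. Within 12 to 24 the difference was -0.43 (adjusted p = 0.0123), and a term for library number gave -0.45 (adjusted p = 0.0182). DESeq2 (-0.36, adjusted p = 0.0314) and voom (-0.44, adjusted p = 0.000576) called it as well. The interaction was 0.08 ± 0.15 (adjusted p = 0.956). The call against young was lost without young replicate 5 (-0.28, adjusted p = 0.0513). It was -0.31 in library numbers 12 to 24 (adjusted p = 0.0159) and -0.26 in 1 to 11 (adjusted p = 0.484). The old library with the lowest microglia sum (8755 CPM) had the highest Picalm of its group, 1485 CPM.

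The scaffold Cd2ap gave the smallest called difference. Young libraries had 111.1, 150.9 and 162.6 CPM, and old repopulated ones 108.3, 116.9 and 148.6 CPM (lowest, median, highest in each). The groups overlapped, with 1 of 8 old repopulated libraries below the young range. The lowest young value was in replicate 3, the library with the fewest genes counted, and the next lowest was 133.4 CPM. Old repopulated replicate 1 had the highest value of its group, and the next highest was 128.7 CPM. Cd2ap fell by 0.25 ± 0.08 on the log2 scale (1.19-fold lower, adjusted p = 0.0490). The call stood in 4 of 23 fits that each left out 1 library, and the difference was -0.30 without young replicate 3. Of 9 other settings 6 kept the call, among them RLE (adjusted p = 0.0433) and upper-quartile factors (adjusted p = 0.0310). The adjusted p was 0.0827 with no filter and 0.0795 with only the groups compared. The difference was -0.36 in library numbers 12 to 24 (adjusted p = 0.00564) and -0.16 in 1 to 11 (adjusted p = 0.742). The other Cd2ap differences were -0.04 ± 0.10 in old against young, -0.11 ± 0.11 in young repopulated against young and -0.20 ± 0.09 in old repopulated against old, none past the threshold.

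Sorl1 (ENSMUSG00000049313.8, chr9:41964720-42124297, minus strand), the endosomal sorting receptor, was higher on average in all 3 groups than in young microglia without passing edgeR's test over all 23 libraries. Young libraries had 90.1, 130.6 and 151.9 CPM (lowest, median, highest), young repopulated ones 173.4, 219.5 and 175.7 CPM, old ones 135.3, 189.0, 272.2, 129.9 and 186.5 CPM, and old repopulated ones 121.3, 154.4 and 230.0 CPM (lowest, median, highest). All 3 young repopulated libraries lay above the young range, and 3 of 5 old and 4 of 8 old repopulated ones. The differences from young were 0.53 ± 0.19 for old (adjusted p = 0.148), 0.58 ± 0.22 for young repopulated (adjusted p = 0.196) and 0.44 ± 0.17 for old repopulated microglia (adjusted p = 0.0774). The young repopulated difference passed with only the groups compared (0.59, adjusted p = 0.0246) and with voom (0.47, adjusted p = 0.0257). The old repopulated difference passed with voom (0.38, adjusted p = 0.0308), when old replicate 3 was left out (0.44, adjusted p = 0.0491) and when old repopulated replicate 1 was (0.51, adjusted p = 0.0332). Within library numbers 12 to 24 the 3 differences were 0.58, 0.55 and 0.35 (adjusted p = 0.1005, 0.146 and 0.234). Its counts were whole numbers in 4 of 23 libraries, so some of its reads were assigned to it only in part.

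**Figure D4:**
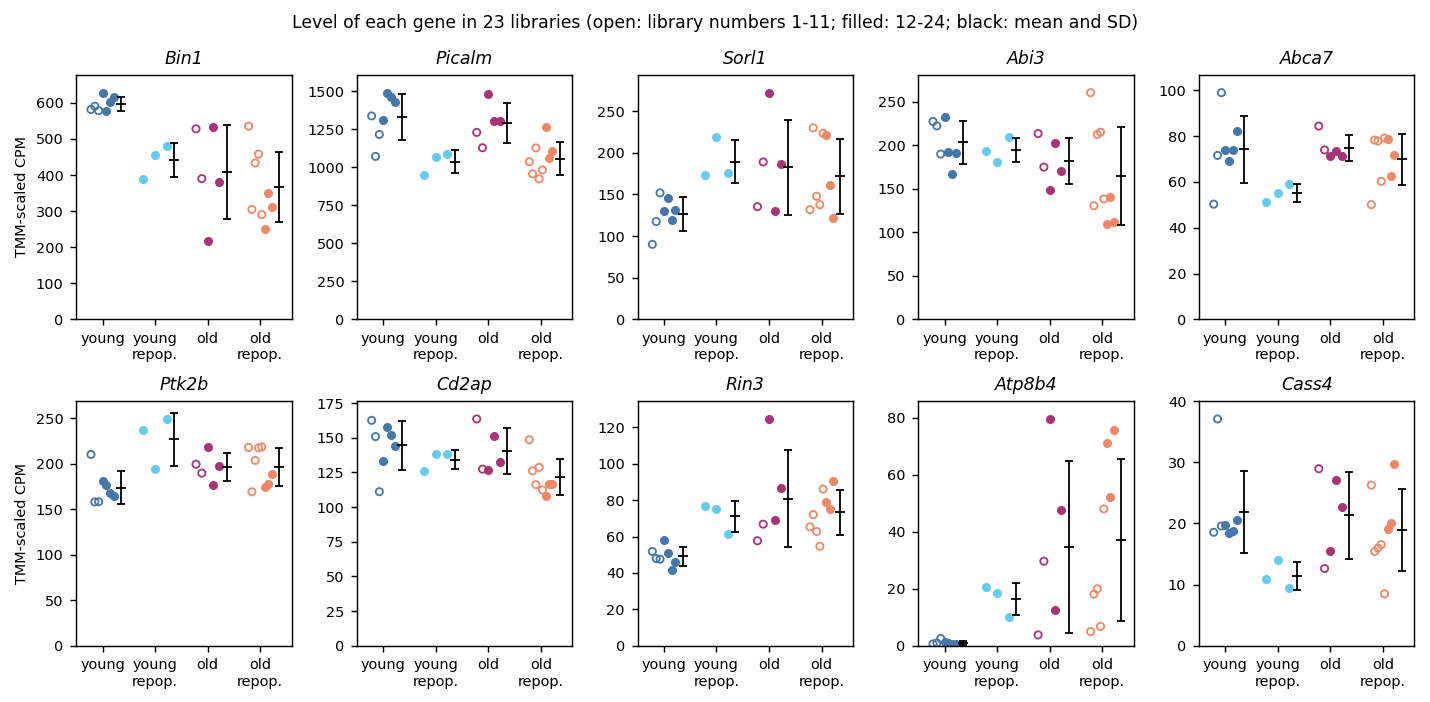
TMM-scaled CPM of the 10 genes in each of 23 libraries by group, with the group mean and SD in black; open points are library numbers 1 to 11 and filled points 12 to 24, and each panel starts at 0. Young points are tight for Bin1 (576 to 628 CPM) and near 0 for Atp8b4, and 1 young library stands at 37.1 CPM for Cass4.

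The lipid transporter Abca7 (ENSMUSG00000035722.15, chr10:79996494-80015572, plus strand) was at the same level in old and young microglia within the spread, 74.9 CPM ± 5.50 (SD, n = 5) and 74.3 ± 14.6 (n = 7), a difference of 0.01 ± 0.13 (adjusted p = 0.986). The young repopulated libraries had 51.3, 55.3 and 59.1 CPM, within the young range of 50.3 to 99.0 CPM but below all except 1 young library. That difference was -0.43 ± 0.15 (adjusted p = 0.177). It passed within library numbers 12 to 24 (-0.41, adjusted p = 0.0151) and with voom (-0.39, adjusted p = 0.00638). Old repopulated libraries had 50.1, 74.8 and 79.2 CPM (lowest, median, highest), -0.10 ± 0.12 against old (adjusted p = 0.880). Between the repopulated groups, old minus young was 0.34 ± 0.15 (adjusted p = 0.409), which passed within 12 to 24 (0.34, adjusted p = 0.0148) and with voom (0.33, adjusted p = 0.0366).

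The WAVE adaptor Abi3 (ENSMUSG00000018381.15, chr11:95830074-95842476, minus strand) spread most in the old repopulated group. Its coefficient of variation was 34.1% there, against 11.97% in young, 7.15% in young repopulated and 14.4% in old libraries. Old repopulated libraries ranged from 109.9 to 260.7 CPM around a median of 139.5, and young ones from 167.4 to 233.0 around 192.1. The 5 lowest, at 109.9 to 140.6 CPM, lay below the young range, and all 3 libraries numbered 12 to 24 were among them. The difference of old repopulated from young was -0.30 ± 0.16 (adjusted p = 0.203), at -0.69 in library numbers 12 to 24 (adjusted p = 0.00184) and -0.15 in 1 to 11 (adjusted p = 0.852). It passed with voom (-0.43, adjusted p = 0.00718), with the library number term (-0.40, adjusted p = 0.0463) and without old repopulated replicate 1 (-0.40, adjusted p = 0.0349). Against old libraries the difference was -0.14 ± 0.17 (adjusted p = 0.878), at -0.53 in 12 to 24 (adjusted p = 0.0355) and -0.01 in 1 to 11 (adjusted p = 1.0). Abi3 counts were whole in 1 of 23 libraries, so its level depends on how shared reads were divided.

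The kinase Ptk2b (ENSMUSG00000059456.13, chr14:66153257-66281052, minus strand) was highest in young repopulated libraries, at 237, 194 and 249 CPM. Young libraries had 157.9, 167.5 and 210.1 CPM (lowest, median, highest), so 2 of 3 young repopulated libraries exceeded them. The difference of 0.38 ± 0.11 missed the threshold (adjusted p = 0.0726), passed it with DESeq2, voom, the library number term and only the groups compared, and was 0.43 within library numbers 12 to 24 (adjusted p = 0.0147). Old (176.6 to 218.2 CPM) and old repopulated libraries (169.1 to 218.3 CPM) did not differ beyond their spread, at 0.00 ± 0.09 (adjusted p = 0.998). The interaction was -0.39 ± 0.14 (adjusted p = 0.476), and it passed with voom (-0.47, adjusted p = 0.0397) and within 12 to 24 (-0.56, adjusted p = 0.0291).

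Cass4, the Cas family scaffold, was lowest in young repopulated libraries, at 10.98, 13.95 and 9.45 CPM. Young libraries had 18.4, 19.6 and 37.1 CPM (lowest, median, highest), all above them. The difference was -0.93 ± 0.32 (adjusted p = 0.148), and -0.73 within library numbers 12 to 24 (adjusted p = 0.0457). It passed as well with only the groups compared (-0.92, adjusted p = 0.0325) and with voom (-0.93, adjusted p = 0.0157). Old (12.6 to 29.0 CPM) and old repopulated libraries (8.48 to 29.8 CPM) spread across both groups, with differences from young of -0.03 ± 0.26 and -0.21 ± 0.23. Between the repopulated groups, old minus young was 0.73 ± 0.31 (adjusted p = 0.404), and 0.98 within 12 to 24 (adjusted p = 0.00497). Cass4 counts were whole in 4 of 23 libraries, so some of its reads were assigned to it only in part.

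Non-overlapping ranges were counted as well. Old and young did not overlap for 2 of 10 genes (Atp8b4, Bin1), against 2.21% of all genes, and old repopulated and young for the same 2, against 2.24%. Young repopulated and young did not overlap for 5 (Atp8b4, Sorl1 and Rin3 above, Bin1 and Cass4 below), against 12.1% of all genes. Old repopulated did not separate from old for any of the 10, against 0.737% of all genes, nor from young repopulated, against 2.26%.

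The abundance-weighted transcript length that RSEM reports was compared as a readout of isoform use. Picalm, with 15 transcripts in the files, averaged 2789 bases ± 73.4 (SD, n = 7) in young, 2663 ± 88.9 (n = 5) in old and 2817 ± 85.5 (n = 8) in old repopulated libraries. Exact two-sided permutation tests gave p = 0.0227 for old against young and p = 0.0109 for old repopulated against old. Ptk2b averaged 3514 bases ± 115 (n = 3) in young repopulated and 3337 ± 74.1 (n = 7) in young libraries (exact permutation p = 0.0250). None of 45 such tests passed after Benjamini-Hochberg adjustment, where the smallest adjusted p of the exact permutation tests was 0.375. Cd2ap has 1 transcript in the files, of 5399 bases.

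Across the 23 libraries, Bin1 ran opposite to Atp8b4 and Rin3. Pearson correlations of log2 CPM were -0.89 for Bin1 with Atp8b4, -0.87 for Bin1 with Rin3, 0.90 for Rin3 with Atp8b4, 0.79 for Bin1 with Abi3 and -0.76 for Bin1 with Sorl1. These are descriptions over libraries that share the group differences and the marker sums above. Of 9646 genes compared, those most like Atp8b4 were Runx2 (0.98), Runx3 (0.98) and Cyfip2 (0.98), and those most like Rin3 were Flt3 (0.92), Dennd1a (0.92) and Ddx28 (0.92). Flt3 is also on the dendritic cell marker list. Most like Bin1 were Arhgef40 (0.97), Olfml3 (0.97) and Rapgef5 (0.95), most like Cd2ap were Zfp62 (0.93), Zfp770 (0.90) and Ktn1 (0.88), and most like Picalm were Tcf4 (0.81), Ccdc86 (0.81) and Atxn1 (0.80).

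Genes of the surrounding pathways were read from 6 fixed lists. The part of other cells in their differences was not tested. Of 44 genes of clathrin endocytosis and endosome sorting, 10 rose and 3 fell in old repopulated against young microglia (median log2 fold change 0.08), with Hip1, a clathrin and actin binder, at 2.17 ± 0.51 (adjusted p = 0.00730), the scaffold Itsn1 at 1.94 ± 0.36 (adjusted p = 0.00147) and the AP-2 subunit Ap2a2 at 0.63 ± 0.18 (adjusted p = 0.0199). The ranges of these 3 genes overlapped the young ones, and Hip1 averaged 106.3 CPM ± 75.3 (SD, n = 8) against 23.7 ± 7.42 (n = 7). In old repopulated against young 15.2% of all genes were called. In old against young 1 rose and 0 fell (2.83% of all genes called), and in young repopulated against young edgeR called 0 (1.34% of all genes). Of 27 tested genes of the WAVE complex and actin capping, 6 rose and 5 fell in old repopulated against young (median 0.20). Of the same genes 1 rose and 1 fell in old against young, and 2 rose and 1 fell in young repopulated against young. The WAVE subunit Cyfip2 averaged 2.66 CPM ± 1.29 (SD, n = 7) in young, 17.3 ± 8.94 (n = 3) in young repopulated, 28.4 ± 21.8 (n = 5) in old and 30.4 ± 19.6 (n = 8) in old repopulated libraries, and rose in each against young, by 3.42 ± 0.58 in old (adjusted p = 0.00368). Abi2, which like Abi1 is a relative of Abi3 on the lists, fell in all 3 against young: 43.2 CPM ± 6.33 (n = 7) in young stood against 25.7 ± 0.657 (n = 3), 25.9 ± 4.11 (n = 5) and 24.9 ± 3.88 (n = 8), in the same order of groups. Its log2 fold change was -0.75 ± 0.15 in young repopulated (adjusted p = 0.0162), -0.74 ± 0.13 in old (adjusted p = 0.00423) and -0.80 ± 0.11 in old repopulated microglia (adjusted p = 0.000161), with no overlap of ranges in any.

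Around Ptk2b and Cass4, 7 of 29 genes of focal adhesion kinase, Src and Cas signalling rose and 2 fell in old repopulated against young (median 0.07). Nedd9, another Cas family scaffold, rose by 1.89 ± 0.39 there (adjusted p = 0.00342) and by 1.77 ± 0.43 in old against young (adjusted p = 0.0247), while Yes1, a Src family kinase, fell by 1.16 ± 0.31 (adjusted p = 0.0160). The Nedd9 and Yes1 ranges overlapped the young ones in these comparisons. Around Abca7 and Atp8b4, 4 of 26 ABCA transporters and P4-ATPases with their partners rose and 2 fell in old repopulated against young (median 0.02). The P4-ATPase Atp10d rose by 0.58 ± 0.14 (adjusted p = 0.0102) and the cholesterol exporter Abcg1 fell by 0.53 ± 0.11 (adjusted p = 0.00340). The lists were read against the 15.2% of all genes called in that comparison. Of 19 tested nearest relatives of the 10 genes, 1 rose (Nedd9) and 3 fell, Bin2 by 0.57 ± 0.11 (adjusted p = 0.00211) and Abi2 among them.

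Among 41 other tested genes from human Alzheimer genetics, 10 rose and 4 fell in old repopulated against young, 2 rose in old against young and 3 rose in young repopulated against young, where 15.2%, 2.83% and 1.34% of all genes were called. Apoe, the lipid carrier with the strongest common risk allele, averaged 6916 CPM ± 2106 (n = 7) in young and 20870 ± 4708 (n = 3) in young repopulated libraries, a log2 fold change of 1.59 ± 0.35 (adjusted p = 0.0251) without overlap. Ms4a4a rose in all 3 groups against young, by 3.56 ± 0.71 in old (adjusted p = 0.00861), 3.03 ± 0.76 in young repopulated (adjusted p = 0.0465) and 3.64 ± 0.68 in old repopulated microglia (adjusted p = 0.00156). It averaged 84.2 CPM ± 83.9 (SD) in old and 89.3 ± 63.8 in old repopulated libraries, against 7.17 ± 7.45 in young. Both old groups overlapped the young range, and the young repopulated group did not. The adaptor Scimp rose by 1.68 ± 0.32 in young repopulated (adjusted p = 0.0112) and by 1.64 ± 0.26 in old repopulated microglia (adjusted p = 0.000601). Of the 176 tested genes of the 6 lists together, edgeR called 0 in old repopulated against old. There 15 (8.52%) had an unadjusted p under 0.05, against 10.4% of all genes, DESeq2 called 0 and voom 1 (0.568%, against 2.21% of all genes). Between the 2 repopulated groups edgeR called 0, with 26 (14.8%) at an unadjusted p under 0.05, against 11.7% of all genes, 0 by DESeq2 and 49 by voom (27.8%, against 17.04% of all genes). For the interaction edgeR called 0, with 13 (7.39%) at an unadjusted p under 0.05, against 8.24% of all genes, 0 by DESeq2 and 2 by voom (1.14%, against 0.807% of all genes).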

How the data were processed

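Poly(A) RNA of 23 libraries was read as single 50-nt reads from 2.4 to 147 ng of RNA, per the labels' protocols. The submitters' processing notes name FastQC 0.11.5, STAR, RSEM, limma and the build GRCm38, with no roles. The authors deposited expected counts per gene, estimated per gene and not always whole (87.3% were, within 1e-06), and TPM, which are scaled for length, in RSEM's layout per the file headers. Whether counting used strand is not given in the sources used here.

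Expected counts were rounded and fitted with edgeR 4.0.16 (R 4.3.3): filterByExpr, TMM, 1 model of all 23 libraries with 4 groups, the quasi-likelihood test and Benjamini-Hochberg adjustment, called under 0.05. CPM are TMM-scaled. Log2 CPM used a prior count of 2. Coordinates come from GENCODE M21 (GRCm38) where the gene version was identical. Alternatives were RLE and upper-quartile factors, no filter, DESeq2 1.42.0, limma 3.58.1 voom with quality weights, only the groups compared, a library number term, each run of library numbers, and leaving out each library. The fit was also run on simulated counts, drawn with the same spread in all groups. That run does not cover the wider spread of some genes in the old groups.

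The 10 genes and the lists were chosen with earlier results of these data known. All 10 are named in every comparison. From each list, up to 4 called genes with the largest change and a mean of at least 5 CPM could be named, and for each of the 10 called anywhere the 3 most correlated genes. Gene lengths were compared with exact permutation tests.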

Additional observations from a re-analysis of the deposited data

Results flagged for a closer look

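In 30 groups of 4 to 10 libraries (10 genes in 3 groups), a library far from the rest was looked for with Dixon's test, which chance alone passes in about 1 of 20 groups. For Abca7, old replicate 1 had 84.44 CPM, where the other 4 old libraries had 71.23 to 74.01 CPM. For Cass4, young replicate 2 had 37.11 CPM, where the other 6 young libraries had 18.43 to 20.64 CPM.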

How the results depend on the processing

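No paired analysis was possible because the replicate numbers only follow the order of deposition and the columns carry no pairing. Of 1880 log2 fold changes of the 10 genes under other settings, 1765 kept direction and side of the threshold, 45 newly passed, 31 no longer passed and 39 changed sign, none of these past the threshold. The number of the 10 genes called moved as follows, with the share of all genes called by the same setting in brackets, and the cause was not tested. Old against young (2): 3 with voom (12.6%), 0 in library numbers 1 to 11 (0.00533%), 2 by each other setting, and 1 to 2 leaving out 1 library (1 without old replicate 3). Old repopulated against old (0): 1 in numbers 12 to 24 (12.7%) and 0 by each other setting. Young repopulated against young (1): 3 with DESeq2 (4.35%), 8 with voom (13.75%), 6 with only the groups compared (7.5%), 3 with the library number term (1.74%), 5 in numbers 12 to 24 (9.3%), 1 by each other setting, and 0 to 2 leaving out 1 library (0 without young repopulated replicate 1). Old repopulated against young (5): 7 with voom (35.5%), 6 with the library number term (24.5%), 6 in numbers 12 to 24 (41.1%), 4 with no filter (7.13%), 4 with only the groups compared (15.8%), 0 in numbers 1 to 11 (0.0107%), 5 by each other setting, and 3 to 7 leaving out 1 library (3 without young replicate 5, 7 without old repopulated replicate 1). Old repopulated against young repopulated (0): 3 with voom (17.04%) and 6 in numbers 12 to 24 (36.3%). Interaction (0): 1 with DESeq2 (0.235%), 1 with voom (0.807%) and 2 in numbers 12 to 24 (8.87%).

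Log2 fold changes that changed sign were as follows. Old against young: Abca7 -0.041 with upper-quartile factors and -0.047 in numbers 12 to 24, Cass4 0.015 with voom and 0.17 in 12 to 24, Cd2ap 0.039 in 1 to 11. Old repopulated against old: Cass4 0.076 in 12 to 24, and Rin3 0.14, Sorl1 0.11 and Ptk2b 0.084 in 1 to 11. Young repopulated against young: Abi3 0.022 with voom, 0.080 with the library number term and 0.021 in 12 to 24. Old repopulated against young: Cass4 0.25 in 12 to 24. Old repopulated against young repopulated: Picalm -0.0089 with upper-quartile factors. Leaving out 1 library, the ranges across 0 were, in old against young, Abca7 -0.065 to 0.093, Picalm -0.10 to 0.020, Cd2ap -0.097 to 0.010 and Cass4 -0.15 to 0.16. In old repopulated against old they were Rin3 -0.25 to 0.065, Sorl1 -0.19 to 0.10, Ptk2b -0.039 to 0.038 and Atp8b4 -0.19 to 0.66. In young repopulated against young Abi3 ran from -0.12 to 0.024, and in old repopulated against young repopulated Picalm ran from -0.029 to 0.068 and Rin3 from -0.053 to 0.10.

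Over all genes, called counts ranged over the other settings from 1 to 2691 in old against young (530), 0 to 2187 in old repopulated against old (52), 165 to 2574 in young repopulated against young (251), 2 to 7068 in old repopulated against young (2847), 0 to 6236 in old repopulated against young repopulated (0) and 0 to 1524 in the interaction (0). In old repopulated against young, 1739 rose and 1108 fell, and with upper-quartile factors 1361 rose and 1335 fell. Depth limits Atp8b4 in young libraries, where it had 25 to 112 counts.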
